A study of Mus musculus with 8 samples.

Results

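Secretagogue receptors let pancreatic acinar cells answer hormones and nerves, and the genes described here are 6 of these receptors and 4 of their Gq effectors. The 10 genes were chosen by name, Cckar, Chrm1, Chrm3, Sctr, Vipr1, Glp1r, Gnaq, Gna11, Plcb3 and Prkcd, and all 10 are present in the deposited table of 54427 genes. RNA sequencing covered primary acinar cells of wild-type (WT) mouse pancreas in 8 libraries, 4 titled AP and 4 titled AP_OCA. Per the labels, injury was set off in all of them with cholecystokinin octapeptide (CCK), a secretagogue, at 1 µM for 6 h. OCA commonly stands for obeticholic acid, which activates FXR, a nuclear receptor for bile acids. A text that all 8 libraries share speaks of increasing OCA concentrations but states 2.5 µM alone, so that AP went without OCA, and that AP_OCA had a single dose, is not given for each library and rests on the titles and this text. Both groups carry the CCK injury, no uninjured cells were analysed here, and the labels do not say whether replicates are separate animals, so p-values measure the spread between these libraries.

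In acinar cells CCK and acetylcholine bind Cckar, Chrm1 and Chrm3, which couple to G proteins of the Gq class. The alpha subunits encoded by Gnaq and Gna11 switch on phospholipase C beta, of which Plcb3 encodes a member, and this enzyme makes inositol trisphosphate and diacylglycerol. Inositol trisphosphate releases the calcium that drives zymogen secretion, and diacylglycerol activates protein kinases C such as the delta isoform encoded by Prkcd. Secretin, VIP and GLP-1 bind Sctr, Vipr1 and Glp1r, which couple mainly to Gs and cyclic AMP. Glp1r is best known from insulin-producing beta cells, and Sctr from duct cells.

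Values are given in CPM, that is, the deposited values returned from the log2 scale and scaled so that each library sums to 1000000. The authors' columns share their top value and nearly their sum, so a CPM is a position in a common distribution and not a share of reads, and the depth of each library is unknown. A gene listed at 0 may have reached up to 3 reads, a level read off as the third-lowest distinct value, at 0.206 to 0.313 CPM in 7 libraries and at 0.000455 in AP_OCA replicate 2, for counting error only. AP_OCA replicate 2 stood apart. All 12 lymphocyte markers lay above every other library there, at a summed 3624 CPM against 3.54 to 39.5, as did 10 of 12 macrophage and myeloid markers, while 14 of 16 islet markers lay below every other library. Its acinar marker sum, partly fixed by the shared top values, was 239934 CPM, against 252701 to 275876 elsewhere. Of the 12 acinar markers 9 lay below every other library, 1 lay above, and none was at 0. Of the 8 members tested, it held the lowest CPM of all for 6 and the highest for none. It also listed 21010 genes above 0, against 15394 to 16640 elsewhere, so small CPM there and elsewhere do not compare directly. Counted in distinct values up from the lowest above 0, Cckar, Chrm3 and Glp1r stood lowest there, at 178, 15 and 5. Vipr1, Gnaq and Prkcd stood highest, at 160, 199 and 992, and Gna11 and Plcb3 in between. Such steps grow with the depth of a library, which is unknown, so they do not compare directly between libraries either. AP_OCA replicate 2 is therefore shown apart, and the members tested are compared over 8 libraries and over the 7 others. Whether it is the library that its label names was not tested. In bulk RNA, fewer cells of a type and less RNA per cell cannot be told apart.

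Glp1r was lower in AP_OCA, Chrm3, Plcb3 and Vipr1 had lower values there without passing the test, and Cckar, the receptor of the injuring hormone itself, stood at about the same level in 7 libraries. Mean Glp1r was 9.11 ± 1.37 CPM over the 4 AP libraries (SD) and fell to 2.49 ± 1.61 over AP_OCA replicates 1, 3 and 4 (n = 3). Over 7 libraries it was the 1 member of 8 tested that passed limma with Benjamini-Hochberg adjustment over all genes, where 2.44% of the 10894 tested genes passed, 1.59% lower in AP_OCA like Glp1r and 0.854% higher, the latter with 0 members. Over all 8 libraries none of the 8 passed, and neither did any of 11311 genes, which is 0% (limma, smallest adjusted p = 0.199). At an unadjusted p under 0.05 over 8 libraries there were 1830 genes (16.2%), among them 4 members, all lower in AP_OCA, as were 8.87% of the tested genes. Over 7 libraries the same threshold took in 25.7% of tested genes, 13.9% in the lower direction, and again 4 members, all lower. In both comparisons the groups did not overlap for 4 of the 8, all lower in AP_OCA. The share of tested genes without overlap in that direction was 8.57% over 8 libraries and 12.1% over 7, and in the other direction, with 0 members, 6.75% and 11.1%. The members and these comparisons were chosen with earlier results known, so the counts describe them and support nothing further. Sctr and Chrm1, the remaining 2 members, had a mean under 1 CPM and were not tested.

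**Figure D1:**
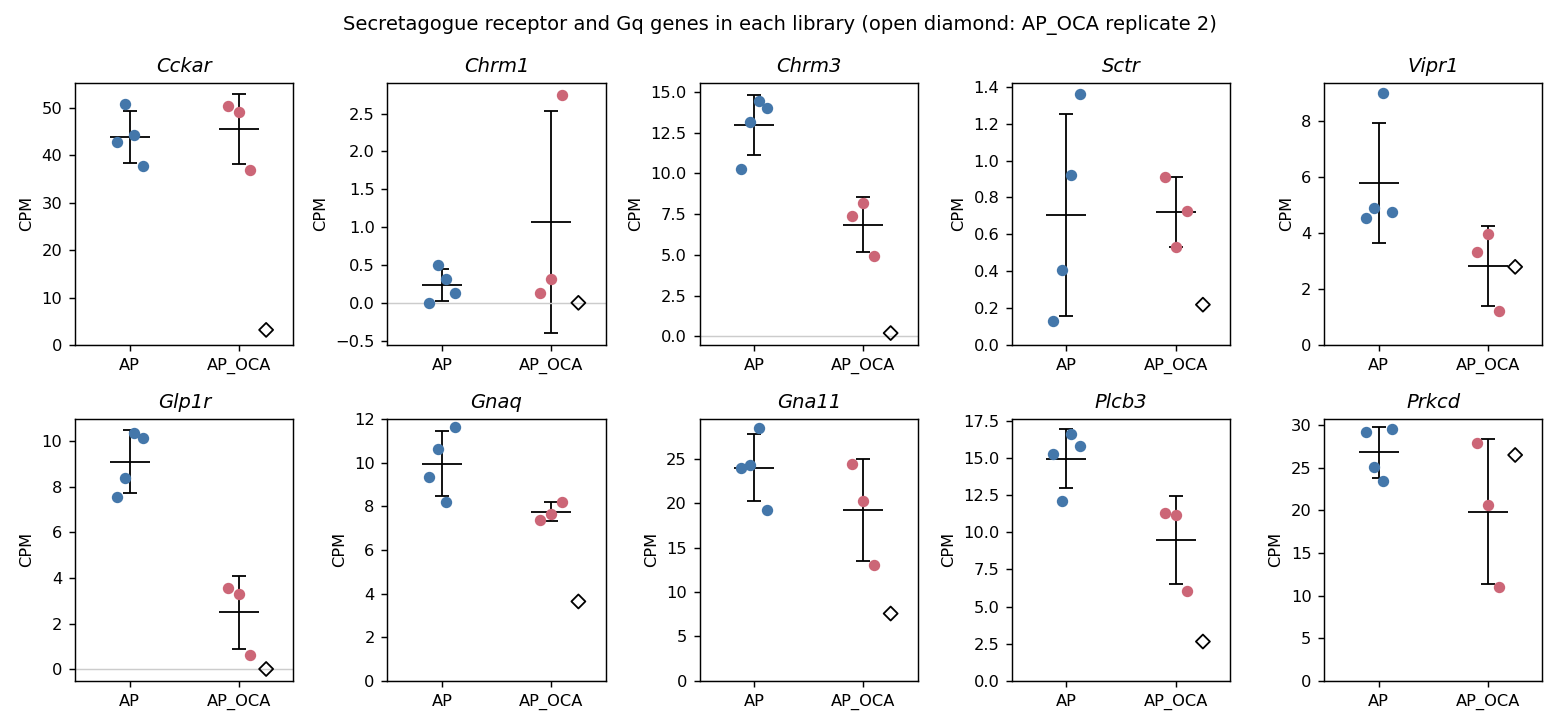
CPM of each of the 10 genes in every library, on a linear axis. Filled points are AP replicates (blue) and AP_OCA replicates 1, 3 and 4 (red), bars are the mean and SD of those points, and the open diamond is AP_OCA replicate 2. For Glp1r the lowest AP value is 7.54 CPM and the highest AP_OCA value 3.55, while the Cckar points of the groups share a range apart from the diamond.

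The upstream stretches of the 4 genes whose groups did not overlap are shown because their values were lower in the same libraries. They come from RefSeq (GRCm38.p6), whose promoter table matched 7 of the 10 members, and run 5′ to 3′ on the gene's strand up to its start or to the first annotated exon base. Capitals mark any match, on either strand, to a GC box (GGGCGG), an AP-1 site (TGANTCA), a CRE (TGACGTCA), a TATA box (TATAAA), the core of an RBPJ site (TGGGAA), an E-box (CACCTG), a nuclear receptor half-site (AGGTCA) or the perfect FXR inverted repeat, which is that half-site followed by its reverse complement after 1 base and so contains it.
Glp1r, chr17:30901617-30901816, plus strand: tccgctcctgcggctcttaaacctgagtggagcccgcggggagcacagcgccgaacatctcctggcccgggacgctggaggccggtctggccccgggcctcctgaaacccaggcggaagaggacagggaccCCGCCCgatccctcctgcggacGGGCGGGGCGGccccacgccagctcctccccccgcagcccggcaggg
Chrm3, chr13:10360848-10361053, minus strand: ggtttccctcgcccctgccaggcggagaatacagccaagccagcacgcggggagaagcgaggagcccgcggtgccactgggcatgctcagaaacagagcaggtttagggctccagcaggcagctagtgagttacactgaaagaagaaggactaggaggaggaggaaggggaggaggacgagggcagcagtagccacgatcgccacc
Plcb3, chr19:6969815-6970064, minus strand: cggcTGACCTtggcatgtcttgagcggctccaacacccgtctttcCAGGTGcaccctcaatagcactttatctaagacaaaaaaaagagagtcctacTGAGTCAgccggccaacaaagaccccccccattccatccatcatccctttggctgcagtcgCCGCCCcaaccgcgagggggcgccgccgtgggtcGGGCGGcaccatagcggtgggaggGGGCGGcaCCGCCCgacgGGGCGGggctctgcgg
Vipr1, chr9:121642466-121642715, plus strand: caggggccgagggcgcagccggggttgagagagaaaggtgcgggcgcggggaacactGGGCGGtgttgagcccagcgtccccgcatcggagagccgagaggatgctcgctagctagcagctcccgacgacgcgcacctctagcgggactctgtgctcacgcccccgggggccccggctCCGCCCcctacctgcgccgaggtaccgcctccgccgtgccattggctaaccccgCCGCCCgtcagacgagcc
The Plcb3 stretch lies within the longer gene model of the GENCODE annotation. In the 250 bases before the start, GC boxes numbered 3 for Glp1r, 5 for Plcb3, 3 for Vipr1 and 0 for Chrm3, and 32.7% of 32851 promoters hold at least 1, or 58.9% of the promoters of tested genes. The AP-1 site appeared once, in Plcb3 (6.75% of all promoters), and so did the half-site (14.0%). The E-box appeared in Plcb3 and in the stretch next to the Glp1r start that is not shown (17.2%). None of the 4 held the perfect FXR repeat, which 0.00609% of all promoters hold, the CRE (1.55%), the TATA box (12.4%) or the RBPJ core (21.6%). A match is a run of letters and not a bound site.

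Among the Gq-coupled receptors, Cckar, the high-affinity CCK receptor of rodent acinar cells, stood at 42.8, 50.9, 44.2 and 37.7 CPM in AP replicates 1 to 4. In AP_OCA replicates 1, 3 and 4 it stood at 50.3, 49.1 and 37.0, and in AP_OCA replicate 2 at 3.18. The 7 libraries interleave, and AP_OCA replicate 2 lies at 8.61% of the lowest of them. Over 7 libraries the log2 fold change of Cckar was 0.044 ± 0.18 SE (95% interval -0.34 to 0.43, limma adjusted p = 0.901). Over 8 it was -0.82 ± 0.73 (adjusted p = 0.563), so that its sign turns on AP_OCA replicate 2. The gene lies at chr5:53697776-53707705 in mm10, and its level ranked between 972 and 1391 from the top in the 7 libraries and 8069 in AP_OCA replicate 2.

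Chrm3, the muscarinic receptor that carries most of the acetylcholine response of acinar cells, stood at 10.3, 13.2, 14.4 and 14.0 CPM in AP. It stood at 7.40, 8.18 and 4.96 in AP_OCA replicates 1, 3 and 4 and at 0.202 in replicate 2. Every AP_OCA library lies below every AP library. The means were 12.98 ± 1.87 CPM (SD, n = 4) and 6.84 ± 1.68 (n = 3). Over 7 libraries the log2 fold change was -0.85 ± 0.22 SE (95% interval -1.32 to -0.37) and did not pass (limma adjusted p = 0.0550). It passed with a minimum of 5 CPM, with quality weights and without AP_OCA replicate 1, at adjusted p of 0.0484, 0.0233 and 0.0449. In the other alternatives over 7 libraries it did not pass, at limma adjusted p up to 0.193. With length and GC trends removed the log2 fold change was -0.65 (limma adjusted p = 0.0912). Over 8 libraries it was -1.52 ± 0.59 (adjusted p = 0.278). Over the 6 libraries without AP_OCA replicates 2 and 4 it was -0.66. Chrm3 lies at chr13:9875486-10360847 in mm10, and the genes annotated within or across it stood at 0.129 CPM or less.

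The receptors were also set against each other within each library. The log2 ratio of Cckar to Chrm3 was 2.06, 1.95, 1.62 and 1.43 in AP and 2.77, 2.59 and 2.90 in AP_OCA replicates 1, 3 and 4, with 3.98 in replicate 2. All 4 AP_OCA values lie above all 4 AP values (this ratio, like the next, was added after the values were seen). The log2 ratio of Cckar to Glp1r was 2.27 ± 0.34 in AP (SD, n = 4) and 4.53 ± 1.16 in AP_OCA replicates 1, 3 and 4 (n = 3). These are ratios of values not divided by length, so they compare libraries and not genes.

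Chrm1 (chr19:8663789-8683587), the other muscarinic receptor of acinar cells, was close to the limit of detection. It stood at 0 in AP replicate 1, at 0.494, 0.313 and 0.129 CPM in AP replicates 2 to 4, and at 0.130 and 0.312 in AP_OCA replicates 1 and 3. AP_OCA replicate 4 held 2.75 CPM and replicate 2 held 0.00035. The value of AP_OCA replicate 4 is alone above the level of a few counts. In the same library the sum of 10 neuron and glia markers was 69.4 CPM, against 6.98 to 22.1 in the other 6 and 3.71 in AP_OCA replicate 2, with Snap25 at 25.6. None of the 10 was at 0 in all 7 libraries, and the part of such cells in the Chrm1 value was not tested. The log2 ratio of Chrm1 to Chrm3 was -0.85 in that library and -6.76 to -4.71 in the 5 others of the 7 with Chrm1 above 0. The log2 ratio of Cckar to Chrm1 was 3.75 there and 6.69 to 8.60 in those 5.

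Among the Gs-coupled receptors, Glp1r showed the largest fold change of the 8 tested members in both comparisons. It stood at 7.54, 8.38, 10.4 and 10.2 CPM in AP replicates 1 to 4. In AP_OCA it stood at 3.55, 3.28 and 0.631 in replicates 1, 3 and 4 and at 0.00109 in replicate 2. The groups lie well apart, and AP_OCA replicates 4 and 2 lie below the other 2 of their group. Over 7 libraries the log2 fold change was -1.66 ± 0.32 SE (95% interval -2.36 to -0.97, limma adjusted p = 0.0285). Over 8 it was -2.08 ± 0.48 (adjusted p = 0.260). The gene lies at chr17:30901817-30940791 in mm10 and overlaps 2 non-coding genes on the opposite strand, so without a statement on strand their reads cannot be told apart.

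The Glp1r call rests on few libraries. Of the 7 fits that leave out a further library, 2 passed, without AP_OCA replicate 1 (-1.93, adjusted p = 0.0142) and without AP_OCA replicate 4 (-1.19, adjusted p = 0.0294). The other 5 had adjusted p of 0.0605 to 0.101, and the log2 fold change over all 7 fits ran from -1.93 to -1.19. With the trends of transcript length and GC content removed from each library, Glp1r was at -1.44 and passed (adjusted p = 0.0372). The sum of 16 islet markers was 517 to 2170 CPM in AP and 1254 to 1750 in AP_OCA replicates 1, 3 and 4, and 0 of the 16 lay below all AP libraries in those 3. Ins2 stood at 296 to 1329 CPM and 774 to 1228 in the same order. In AP_OCA replicate 2 the islet sum was 9.10 and Ins2 6.61, and 2 of the 16 were at 0. The part of islet cells in the Glp1r values was not tested.

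**Figure D2:**
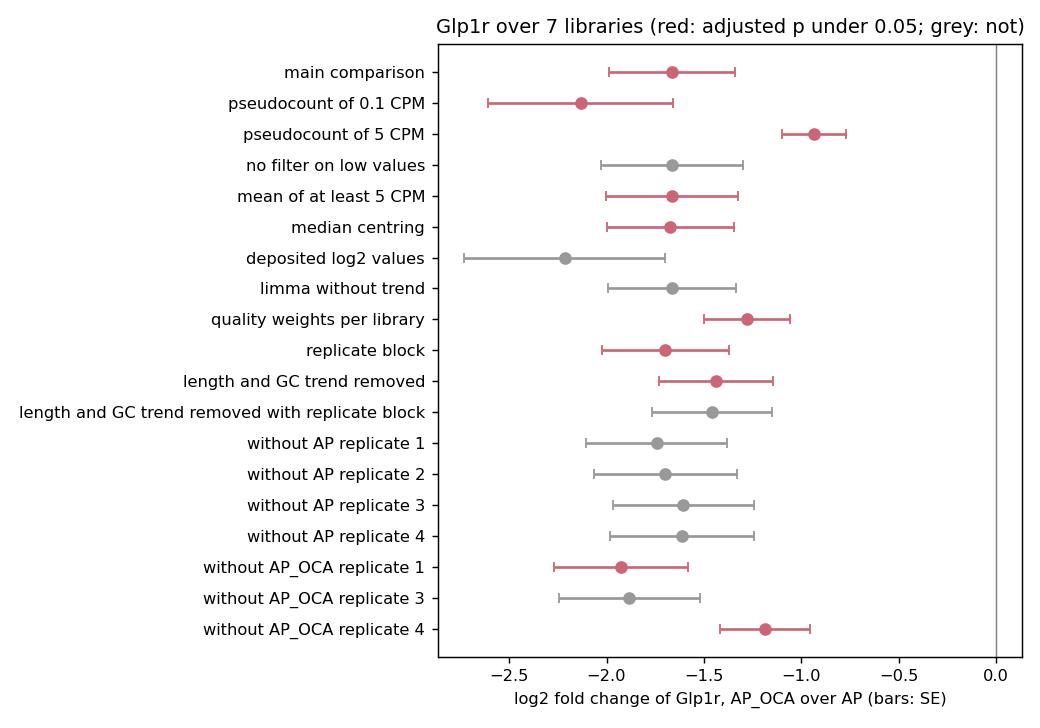
Log2 fold change of Glp1r over 7 libraries, AP_OCA over AP, under the main comparison and each alternative. Points are the estimates, bars their SE, red an adjusted p under 0.05. All estimates lie below 0, between -2.22 and -0.93, and the color changes with the library left out.

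Vipr1 (chr9:121642716-121672954), a VIP receptor, stood at 4.54, 4.87, 8.97 and 4.74 CPM in AP. It stood at 3.31, 3.96 and 1.22 in AP_OCA replicates 1, 3 and 4 and at 2.79 in replicate 2. The groups do not overlap, and AP replicate 3 lies well above the other AP libraries. Vipr1 had a log2 fold change of -0.86 ± 0.31 SE over 7 libraries (limma adjusted p = 0.113) and -0.84 ± 0.32 over 8 (adjusted p = 0.275). Without AP_OCA replicate 4 it was -0.51 over the remaining 6, without AP replicate 3 -0.66, and with length and GC trends removed -0.48. T lymphocytes also use Vipr1, and the lymphocyte sum of 3624 CPM in AP_OCA replicate 2 stands beside its value there; its part was not tested. In AP_OCA replicates 1, 3 and 4 that sum was 3.54 to 6.26 CPM, with Cd3e and Cd2 at 0 in all 7 libraries.

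Sctr (chr1:120006894-120063536), the secretin receptor, stood at 0.129, 0.407, 0.925 and 1.36 CPM in AP. It stood at 0.911, 0.530 and 0.725 in AP_OCA replicates 1, 3 and 4 and at 0.219 in replicate 2. The groups overlap throughout. The duct marker sum was 303 to 365 CPM in AP, 392 to 480 in AP_OCA replicates 1, 3 and 4 and 61.8 in replicate 2, with none of the 10 at 0 in all 7 libraries.

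Among the Gq effectors, Plcb3 encodes a phospholipase C beta. It stood at 15.3, 12.1, 16.6 and 15.8 CPM in AP, at 11.3, 11.1 and 6.06 in AP_OCA replicates 1, 3 and 4, and at 2.65 in replicate 2. The groups do not overlap, but AP replicate 2 and AP_OCA replicate 1 lie close to each other. The log2 fold change was -0.64 ± 0.23 SE over 7 libraries (95% interval -1.14 to -0.14, limma adjusted p = 0.114) and -1.01 ± 0.38 over 8 (adjusted p = 0.275). It was -0.38 without AP_OCA replicate 4 and -0.23 with length and GC trends removed, where Prkcd was at -0.35. Plcb3 lies at chr19:6952325-6976470 and overlaps Ppp1r14b on the opposite strand, which stood at 33.6 to 99.2 CPM over the 8 libraries, so reads in the overlap cannot be assigned without strand.

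The Gq-class alpha subunits did not pass either. Gnaq (chr19:16132831-16387463) stood at 9.34, 10.6, 8.21 and 11.6 CPM in AP, at 7.40, 7.65 and 8.23 in AP_OCA replicates 1, 3 and 4, and at 3.64 in replicate 2. AP_OCA replicate 4 and AP replicate 3 nearly coincide, and the other AP libraries lie higher. Its log2 fold change over 7 libraries was -0.31 ± 0.20 SE (95% interval -0.75 to 0.12, limma adjusted p = 0.341), and over 8 it was -0.54 ± 0.27 (adjusted p = 0.338). Gna11 (chr10:81528724-81545190), its close relative, stood at 24.02, 24.3, 28.5 and 19.2 CPM in AP and at 24.5, 20.3 and 13.1 in AP_OCA replicates 1, 3 and 4, with 7.59 in replicate 2. The groups overlap, with AP_OCA replicate 1 inside the AP range. Its log2 fold change over 7 libraries was -0.33 ± 0.22 (95% interval -0.81 to 0.15, limma adjusted p = 0.359), and it was 0.018 with length and GC trends removed. Over 8 libraries Gna11 was at -0.63 ± 0.34 (adjusted p = 0.363). The log2 ratio of Gnaq to Gna11 was -1.27 ± 0.44 in AP (SD, n = 4) and -1.27 ± 0.54 in AP_OCA replicates 1, 3 and 4 (n = 3), and -1.06 in replicate 2.

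Prkcd (chr14:30595354-30626210), the delta isoform of protein kinase C, was the 1 tested member whose value in AP_OCA replicate 2 lay inside the AP range. It stood at 29.2, 25.0, 23.5 and 29.5 CPM in AP, at 27.9, 20.7 and 10.996 in AP_OCA replicates 1, 3 and 4, and at 26.5 in replicate 2. AP_OCA replicates 1 and 2 lie inside the AP range and replicate 4 far below it. The log2 fold change was -0.50 ± 0.26 SE over 7 libraries (limma adjusted p = 0.234) and -0.38 ± 0.30 over 8 (adjusted p = 0.519), and it was -0.15 over 6 without AP_OCA replicate 4. Leukocytes also express Prkcd, and the macrophage and myeloid sum was 864 CPM in AP_OCA replicate 2 against 97.8 to 184 elsewhere; its part was not tested.

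**Figure D3:**
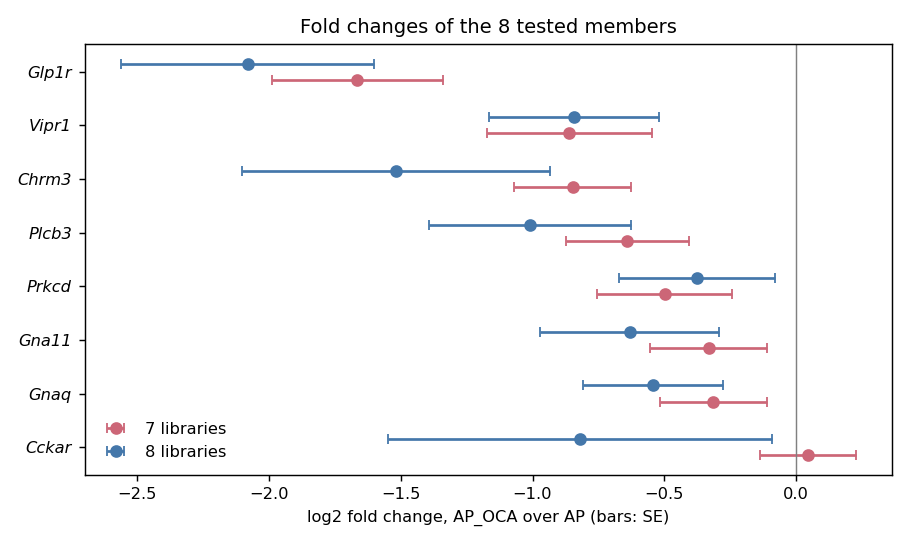
Log2 fold change, AP_OCA over AP, of the 8 tested members over 8 libraries (blue) and without AP_OCA replicate 2 (red), with SE bars. All lie below 0 over 8 libraries, and over 7 Cckar lies at 0.044 while Glp1r stays the lowest, at -1.66.

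AP_OCA replicate 4 held the lowest of the 7 values for 7 of the 8 tested members, the exception being Gnaq. Among all tested genes the log2 fold change was below 0 for 50% over 7 libraries and 50.9% over 8, against 7 and 8 of the 8 members. The members' median log2 fold change was -0.57 over 7 libraries and -0.83 over 8, where the median of all tested genes lay at -0.000090 and -0.013. With the trends of transcript length and GC content removed over 7 libraries, most members lay closer to 0, and Cckar lay further, at 0.075. Stromal marker sums were also lower in AP_OCA replicates 1, 3 and 4. In AP_OCA replicate 2 they were the highest of all, at 242 CPM (endothelial) and 655 CPM (stellate and fibroblast). The endothelial marker sum was 122 to 158 CPM in AP and 43.4 to 104 in AP_OCA replicates 1, 3 and 4, lowest in replicate 4, with 2 of 10 markers below all AP libraries. The stellate and fibroblast sum was 196 to 257 and 123 to 195, again lowest in replicate 4, with 5 of 10 below. The acinar sum was 269228 to 275876 and 252701 to 262062, with 1 of 12 below. The most abundant acinar markers take values near the top of the distribution that all columns share, so this sum is partly fixed. Of all tested genes 12.1% lay lower without overlap over 7 libraries. No marker of these 3 lists was at 0 in all 7 libraries, and their part in the members' values was not tested.

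Levels of different genes were compared per kb of the longest annotated transcript. In AP the order was Cckar at 13.6 ± 1.68 CPM per kb (SD, n = 4), Prkcd at 9.41 ± 1.06, Gna11 at 7.03 ± 1.11, Plcb3 at 3.28 ± 0.433 and Chrm3 at 2.99 ± 0.431. Gnaq followed at 1.76 ± 0.265, Glp1r at 1.57 ± 0.236, Vipr1 at 1.18 ± 0.435, Sctr at 0.351 ± 0.272 and Chrm1 at 0.0373 ± 0.0344. The ranges of neighbours overlapped between Prkcd and Gna11, Plcb3 and Chrm3, Gnaq and Glp1r, Glp1r and Vipr1, and Sctr and Chrm1. Within libraries the first of each pair was higher in 3 of 4 AP libraries, and for Sctr and Chrm1 in 4 of 4. Glp1r lay above Vipr1 in 3 of 4 AP libraries and in 0 of AP_OCA replicates 1, 3 and 4, where it was at 0.428 ± 0.277 CPM per kb (n = 3) against 0.577 ± 0.292. In AP_OCA replicate 2 Prkcd led at 9.29, above Gna11 at 2.22 and Cckar at 0.986.

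**Figure D4:**
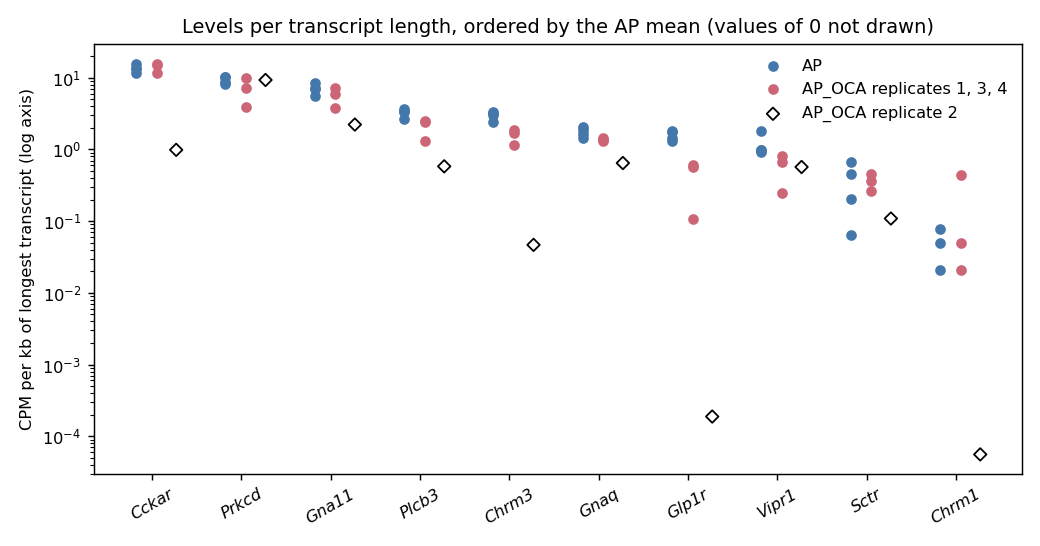
CPM per kb of the longest transcript on a log axis, with the 10 genes ordered by their AP mean. Points are libraries of AP (blue), AP_OCA replicates 1, 3 and 4 (red) and AP_OCA replicate 2 (open diamond). Cckar leads in AP at 13.6 and lies near 1 in the diamond, while Prkcd lies at 9.29 there.

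The other genes of these pathways were taken from 7 lists. Of 13 ligand genes 2 were tested over 7 libraries and neither passed, and CCK itself (Cck) was listed at 0 in every library but AP_OCA replicate 4, at 3.55 CPM, the library with the highest neuron and glia marker sum. Glucagon (Gcg), whose precursor also yields GLP-1, stood at 115 ± 49.6 CPM in AP (SD, n = 4) and 126 ± 80.2 in AP_OCA replicates 1, 3 and 4 (n = 3), and at 0.202 in replicate 2. Tac1, the substance P precursor, had a log2 fold change of 0.096 ± 0.23 over 7 libraries and -0.73 ± 0.71 over 8, with 0.326 CPM in AP_OCA replicate 2. That of Gcg was 0.057 ± 0.44 and -1.58 ± 1.39 in the same order. Of 25 other receptors 6 were tested and 0 passed (limma; 0 had an unadjusted p under 0.05), with a median of -0.074. The somatostatin receptor Sstr2 stood at 0.66 ± 0.34 and the protease-activated receptor F2rl1 at -0.64 ± 0.40.

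Of 11 other G protein subunits 7 were tested over 7 libraries and 0 passed by limma. An unadjusted p under 0.05, which 25.7% of all tested genes had, was found for 2 of them. They were the beta subunit Gnb4 at -0.97 ± 0.25 (adjusted p = 0.0516) and the gamma subunit Gng5 at 0.65 ± 0.22 (adjusted p = 0.0931). Over the alternatives that keep all 7 libraries Gnb4 ranged from -1.52 to -0.42 and Gng5 from 0.075 to 0.67. Of 9 other phospholipase C genes 6 were tested and 0 passed by limma, 0 at an unadjusted p under 0.05, with Plcb1 at 0.30 ± 0.30 and Plcd3 at -0.37 ± 0.25. Plcb2, the leukocyte isoform, averaged 0.21 CPM in AP and stood at 6.75 in AP_OCA replicate 2. Of 11 other protein kinase C and D genes 8 were tested and 0 passed by limma, 1 of them with an unadjusted p under 0.05. That gene was Prkch at -0.77 ± 0.28, which stood at 27.8 CPM in AP_OCA replicate 2 against 1.11 to 5.49 elsewhere. Over 8 libraries Prkch was at 0.0042 ± 0.68 (limma adjusted p = 0.998). Prkce stood at 0.74 ± 0.41. The medians of these 3 lists were 0.040, 0.034 and -0.025 over 7 libraries and 0.069, 0.21 and 0.32 over 8.

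Among brakes on the pathway, receptor kinases, arrestins and diacylglycerol kinases, 18 of 24 genes found in the table were tested over 7 libraries and 0 passed by limma. At an unadjusted p under 0.05 there were 5, 1 higher and 4 lower, where 25.7% of all tested genes had such a p, 13.9% lower. Arrb2, an arrestin that uncouples receptors, stood at 5.86 ± 0.428 CPM in AP (SD, n = 4) and 11.9 ± 4.23 in AP_OCA replicates 1, 3 and 4 (n = 3), a log2 fold change of 0.86 ± 0.24 SE (adjusted p = 0.0643). Its value in AP_OCA replicate 2, which carries leukocyte markers, was 40.2. Dgkz, which removes diacylglycerol, stood at -0.64 ± 0.21 (adjusted p = 0.0904). Over the alternatives that keep all 7 libraries Dgkz ranged from -0.65 to -0.17.

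The Gs and cyclic AMP arm, onto which Glp1r and Vipr1 feed, held the 1 gene of these lists that passed. Adcy6, an adenylyl cyclase that makes cyclic AMP, stood at 20.2, 18.8, 24.4 and 25.6 CPM in AP. It stood at 12.3, 11.5 and 8.74 in AP_OCA replicates 1, 3 and 4 and at 4.04 in replicate 2. All AP_OCA libraries lie below all AP libraries. Adcy6 fell, with a log2 fold change of -0.98 ± 0.20 SE over 7 libraries (limma adjusted p = 0.0320), and had -1.28 over 8 without passing (adjusted p = 0.260). Adcy6 passed in 2 of the 7 fits with a further library left out, and with length and GC trends removed it was at -0.57 and did not pass (adjusted p = 0.0753). Of the 19 tested genes of this list 18 did not pass, and the median was -0.095. At an unadjusted p under 0.05 there were 5 lower and 1 higher, Adcy6 included. Without overlap of the groups, 6 of the 19 lay lower and 1 higher. Over all tested genes 25.7% had such a p, 13.9% in the lower direction. Without overlap, 12.1% of all tested genes lay lower and 11.1% higher. Gnas, the Gs alpha subunit, had a log2 fold change of -1.17 ± 0.46 over 7 libraries (limma adjusted p = 0.155), and the adenylyl cyclase Adcy9 had -1.07 ± 0.27 (adjusted p = 0.0530), both further from 0 than Adcy6.

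**Figure D5:**
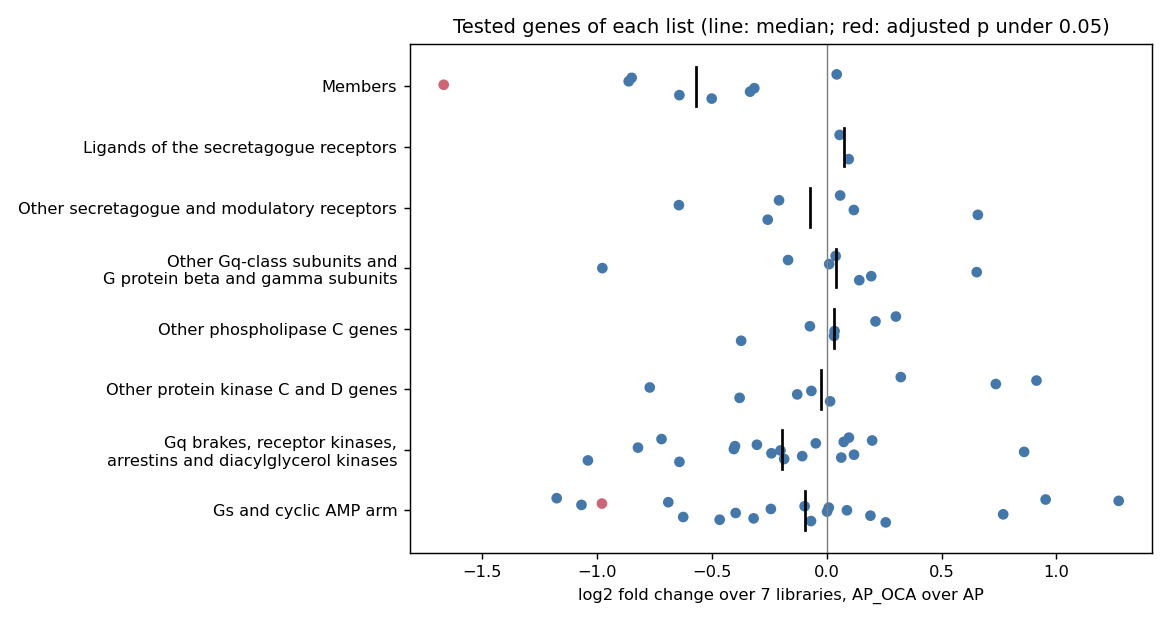
Log2 fold changes over 7 libraries of the 8 tested members and of the tested genes of 7 other lists, 1 point a gene, with a line at each median. Red points, Glp1r among the members and Adcy6 in the Gs and cyclic AMP arm, had an adjusted p under 0.05. The members' median lies at -0.57 and the other medians between -0.19 and 0.077.

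Listed next are the 2 genes nearest to a member across the 7 libraries, by the root mean square difference of centred log2 values. They were picked from 6698 genes at 5 CPM or more. Such a search returns near genes by construction, so the distances only describe. Nearest to Glp1r were the collagen gene Col1a1 (0.153) and the immediate early gene Jun (0.187), against an SD of 1.02 for Glp1r itself. Nearest to Chrm3 were Hdac5 (0.0706) and Men1 (0.0778), to Plcb3 Brd2 (0.0801) and Cmip (0.0821), and to Vipr1 Ubxn6 (0.0907) and Prelp (0.122). Prkcd lay nearest to Prpf40b (0.0462) and Fam117a (0.0778), and Gna11 to Adam15 (0.0660) and Hps1 (0.0810). In AP_OCA replicate 2, which the measure did not use, the genes nearest to Glp1r parted. Col1a1 stood at 29.7 CPM there against an AP mean of 29.2, and Jun at 8.78 against 122.7.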

How the data were processed

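Total RNA was turned into sequencing libraries with a SMARTER kit, per the labels, and the build is mm10, per the submitters' processing notes; the aligner, counter and annotation are not given in the sources used here. The authors deposited log2 values, whose lowest value, -6.64, is the log2 of an offset of 0.01, and all columns share their highest value, as after quantile normalisation. Here the log was undone, the offset subtracted and each library scaled to a sum of 1000000 (CPM). Columns were matched to samples by title.

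The test took genes averaging 1 CPM or more over its libraries, on log2(CPM + 1) with limma 3.58.1 (R 4.3.3), with trend and robust moderation, and Benjamini-Hochberg adjustment at 0.05 over all tested genes. The pseudocount of 1 understates changes of low genes. On simulated data 200 genes were changed, none of them at a low level, so the recovery does not cover genes as low as Vipr1. The 7-library test on 10894 genes recovered 94.0% of 4-fold and 66.0% of 2-fold changes in CPM + 1. The 8-library test on 11311 genes recovered 70.0% and 10.0%. Of the genes called, 6 of 166 over 7 libraries and 7 of 87 over 8 were unchanged. Lengths and GC content came from the longest GENCODE M21 transcript (mm10), matched by symbol. Replicate numbers are shared between groups, but deviations of same-numbered libraries correlated at -0.166 to 0.116, so no block was used. With so few libraries these correlations cannot show whether the libraries are paired.

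The members, the lists and the separate treatment of AP_OCA replicate 2 were chosen with earlier results of these data known. Named were all members, list genes that passed or else the 2 with the lowest p over 7 libraries, the 2 genes nearest each variable member, and abundant markers; Cck, Gnas, Adcy9, Plcb2, Cd3e, Cd2 and Ppp1r14b were named after their values were seen. Alternatives were 2 other pseudocounts, 2 other filters, 2 other scalings, limma without trend, quality weights, the replicate block, removal of length and GC trends, and each library left out.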

Additional observations from a re-analysis of the deposited data

Results flagged for a closer look

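All 10 genes were checked in both groups for a library far from the rest, where chance flags about 1 in 20 such checks. In 3 cases 1 library of a group of 4 lay far off on the log2(CPM + 1) scale. The measure was the gap to its nearest neighbour as a share of the group's range. For Cckar in AP_OCA the share was 0.880, with replicate 2 at 3.18 CPM and the others at 37.0 to 50.3. For Gnaq in AP_OCA it was 0.863, with replicate 2 at 3.64 CPM and the others at 7.40 to 8.23. For Vipr1 in AP it was 0.899, with replicate 3 at 8.97 CPM and the others at 4.54 to 4.87. The cause was not tested.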

How the results depend on the processing

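Over 8 libraries no member passed except with quality weights (2) and without AP_OCA replicate 2 (1), a range of 0 to 1 over the left-out fits. All genes past the threshold over 8 libraries went from 0 to 1052 with quality weights and ranged from 0 to 266 when 1 library was left out. Over 7 libraries the 1 passing member became 2 with a minimum of 5 CPM or quality weights and 0 with no filter, deposited log2 values, limma without trend, or length and GC trends removed with the replicate block, and ranged from 0 to 2 when a library was left out. The 266 genes became 156 at a pseudocount of 0.1, 386 at 5, 0 with no filter, 113 with deposited values, 13 without trend, 1675 with quality weights, 559 with the replicate block, 126 with length and GC trends removed and 32 with that and the replicate block, and 7 to 973 when a library was left out.

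Glp1r kept its direction in all 18 alternatives over 7 libraries. It lost its call with no filter (-1.66, adjusted p = 0.191), deposited values (-2.22, 0.0595), limma without trend (-1.66, 0.0694), and length and GC trends removed with the replicate block (-1.46, 0.0716), and ranged from -1.93 to -1.19 when a library was left out. Over 8 it passed with quality weights (-1.33) and without AP_OCA replicate 2 (-1.66; left-out range -2.39 to -1.66). Chrm3 passed with quality weights (-0.70 over 8, -0.64 over 7) and a minimum of 5 CPM (-0.85 over 7), and ranged from -0.97 to -0.66 when a library was left out of the 7. Cckar over 8 turned to 0.10 with quality weights and 0.044 without AP_OCA replicate 2 (left-out range -1.16 to 0.044). Over 7 it turned to -0.025 without AP replicate 4, -0.033 without AP_OCA replicate 1 and -0.017 without AP_OCA replicate 3 (range -0.033 to 0.18). Gna11 over 7 turned to 0.018 with length and GC trends removed and 0.063 with the replicate block as well. With the replicate block alone Glp1r kept its call over 7 libraries (-1.70, limma adjusted p = 0.00239), where AP replicate 2 has no partner. No member passed over 8 with this block. Whether same-numbered libraries are paired is not known.

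Among other genes, the values over 8 libraries were -0.73 for Tac1, -1.58 for Gcg, 0.0042 for Prkch, -0.37 for Plcd3 and -0.049 for Plcb1. Quality weights turned Tac1 to 0.068, Gcg to 0.43 and Prkch to -0.49. Length and GC trends removed turned Plcd3 to 0.090, with and without the block. Plcb1 turned to 0.00010 at a pseudocount of 5, and Prkch to -0.13 at 0.1 and -0.16 with deposited values. Left-out fits ranged from -1.07 to 0.096 for Tac1, -2.45 to 0.057 for Gcg, -0.31 to 0.30 for Plcb1 and -0.77 to 0.49 for Prkch. Over 7, Tac1 turned to -0.078 with the replicate block, -0.33 with trends removed and -0.55 with both, and Gcg to -0.14, -0.50 and -0.73. Plcd3 turned to 0.017 with both and Plcb1 to -0.046 with quality weights. Left-out fits ranged from -0.078 to 0.25 for Tac1 and -0.42 to 0.41 for Gcg. The cause of these shifts was not tested; quantile normalisation and unknown depth limit low members such as Chrm1 and Sctr.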
